A study of Homo sapiens with 22 samples.

Results

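SMAD3 encodes a transcription factor of the TGF-beta pathway, and the data described here are all deposited CUT&Tag peaks that share at least 1 bp with the hg19 interval chr15:67250000-67600000 around that gene. The interval spans 350 kb and was selected on results of these same data, for BAF sites in the gene that were called with WT ARID1A and not in Empty. It held 170 of the 508791 peaks on chromosomes 1 to 22 and X in 22 libraries, which were 21 of 71940 SMARCA4 peaks, 28 of 103951 SMARCC1 peaks, 120 of 327510 H3K27ac peaks and 1 of 5390 HA peaks. The SMAD3 start site was taken at position 67358195 and the gene end at 67487533, and distances below run from that start site along the direction of transcription.

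All libraries came from AN3CA cells, an established human endometrial carcinoma line. The cells expressed wild-type ARID1A (WT), ARID1A with a mutated ARID domain (DBDmut), a truncation named delIDR1, a truncation named CBR, a hybrid carrying the disordered region of DDX4 (DDX4), or carried an empty vector (Empty). SMARCA4, SMARCC1 and H3K27ac were profiled in each, with 1 library per antibody for every form of ARID1A and 2 replicates for Empty, and an HA library was analysed for DDX4. With 1 library per form there is no replicate check of any difference between forms, and the labels do not say whether the Empty replicates came from separate cultures.

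SMAD3 is phosphorylated by TGF-beta and activin receptors, joins SMAD4, enters the nucleus and binds DNA together with other factors, among them AP-1. ARID1A is a large subunit of the canonical BAF complex, a SWI/SNF remodeller that moves nucleosomes with the ATPase SMARCA4 and is built around a core that includes SMARCC1. Acetylation of histone H3 at lysine 27 (H3K27ac) marks active promoters and enhancers, and in CUT&Tag an antibody to each of these targets brings a transposase to the site, which cuts out the fragments that are sequenced. No enhancer activity or RNA was measured in these libraries, so the sites are named by their peaks and their distance from the start site.

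RefSeq lists 5 SMAD3 start sites in GRCh38.p14, and the 250 bases before the first and the third are shown because they are the SMAD3 promoters that held a GC box or an AP-1 motif. Capitals mark GGGCGG or its reverse complement CCGCCC in the first, and TGANTCA in the third, which reads the same on both strands. The first lies at chr15:67065352-67065601 and the third at chr15:67125492-67125741, both on the plus strand of GRCh38.p14.

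SMAD3 promoter, start 1: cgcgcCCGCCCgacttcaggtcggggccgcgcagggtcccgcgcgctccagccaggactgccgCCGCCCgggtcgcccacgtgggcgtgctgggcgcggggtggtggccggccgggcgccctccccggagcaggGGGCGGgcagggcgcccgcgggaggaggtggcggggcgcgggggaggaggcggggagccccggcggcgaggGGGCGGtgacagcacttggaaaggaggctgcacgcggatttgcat
SMAD3 promoter, start 3: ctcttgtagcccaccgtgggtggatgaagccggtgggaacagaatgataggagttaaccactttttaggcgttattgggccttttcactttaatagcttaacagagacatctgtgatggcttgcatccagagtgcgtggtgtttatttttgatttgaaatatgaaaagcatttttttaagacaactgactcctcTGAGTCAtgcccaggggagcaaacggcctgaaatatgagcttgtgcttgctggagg

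The first promoter had 4 GC boxes and a GC content of 80.8%, and a GC box was present in 42.6% of the 35116 promoters searched. The third had 1 AP-1 motif, which was present in 6.57% of promoters. A CAGA box (CAGACA, a sequence bound by SMAD3, searched on both strands) was present in 13.6% of promoters, and among the SMAD3 promoters only the fourth held one. No 2 matches of these motifs overlapped in the SMAD3 promoters. The third start lies 60.1 kb after the first within GRCh38.p14. The peaks are in hg19 and positions were not converted, so whether a promoter coincides with a peak was not tested.

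The lists differed in length and depth. SMARCA4 lists held 5567 to 15207 peaks, SMARCC1 lists 9685 to 23855 and H3K27ac lists 31745 to 92057. Depth, estimated as background fragments per kb, ranged between 0.916 and 1.95 in the SMARCA4 libraries, between 1.33 and 3.28 in the SMARCC1 libraries and between 3.59 and 4.69 in the H3K27ac libraries outside DDX4 (6.05) and Empty replicate 2 (14.5). Peak names carry a stamp, 20210822 for WT, DBDmut, delIDR1, CBR and Empty replicate 1, 20220118 for DDX4 and 20220422 for Empty replicate 2, which the labels do not explain. What is particular to DDX4 or to Empty replicate 2 therefore cannot be told apart from its stamp.

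WT cells had the most BAF peaks around SMAD3. SMARCA4 had 9 peaks in WT, 5 in DBDmut, 1 in delIDR1, 1 in DDX4 and 3 in CBR, against 0 in Empty replicate 1 and 2 in Empty replicate 2. SMARCC1 had 13 peaks in WT, 5 in DBDmut, 2 in delIDR1, 2 in DDX4 and 3 in CBR, against 1 and 2 in the Empty replicates. Lists of different length give different chances of a peak, and per 10000 peaks of its list the window held 6.95 SMARCA4 peaks in WT, 3.29 in DBDmut, 1.4 in delIDR1, 1.14 in DDX4 and 2.33 in CBR, against 0 and 2.13 in Empty. H3K27ac did not follow that order, with 21 peaks in WT, 17 in DBDmut, 11 in delIDR1, 14 in DDX4 and 15 in CBR, against 5 and 37 in Empty replicates 1 and 2. Per 10000 peaks of its list these were 4.13 in WT, 4.34 in DBDmut, 3.47 in delIDR1, 3.86 in DDX4 and 3.66 in CBR, against 1.38 and 4.02 in Empty. With all H3K27ac lists limited to an equal number of peaks, WT had 15, DBDmut 13, delIDR1 11, DDX4 9 and CBR 10, against 5 and 9 in Empty. The H3K27ac library of Empty replicate 2 was the deepest. What its depth contributed to its number of peaks was not tested.

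**Figure D1:**
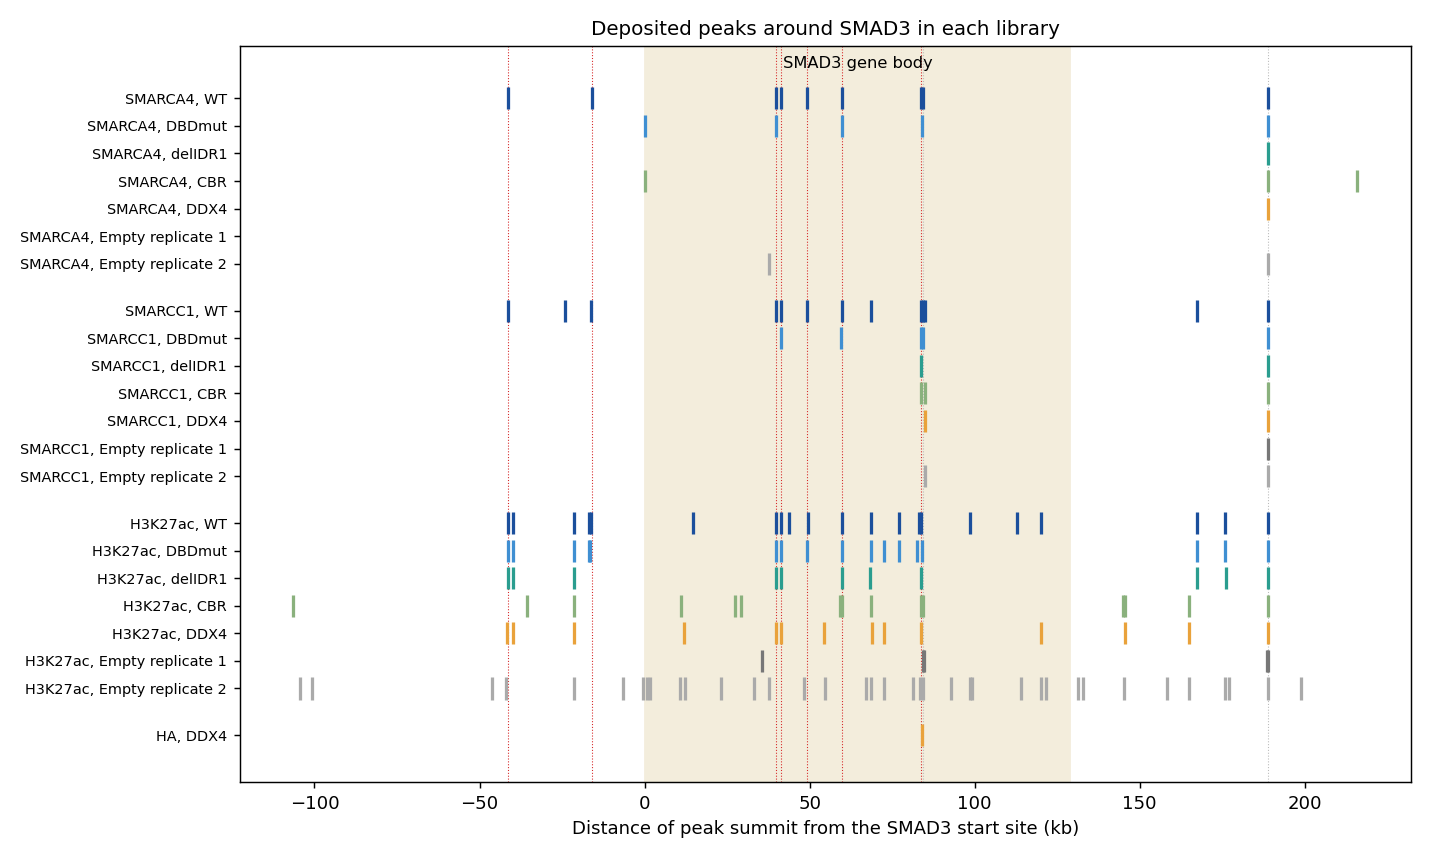
Summits of all 170 peaks by library (rows), against distance from the SMAD3 start site in kb; each tick is a summit, not the peak's width, the shaded band is the SMAD3 gene body, and dotted lines mark the 9 WT BAF sites (red, 7 gained sites; grey, 2 mixed sites). SMARCA4 and SMARCC1 ticks inside the gene are most frequent in WT, and the downstream site at +188.9 kb has ticks in 13 of the 14 SMARCA4 and SMARCC1 libraries.

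In all, 9 WT BAF sites, SMARCA4 peaks of WT that overlapped a SMARCC1 peak of WT, lay in the window, 2 upstream of the start, 6 in the gene body and 1 downstream. A site was called gained when neither Empty replicate had a SMARCA4 or SMARCC1 peak on it, and constitutive when both replicates had both subunits. Of the 9 sites, 7 were gained (77.8%, Wilson 95% interval 45.3 to 93.7), against 4383 of 9743 WT BAF sites on all chromosomes (45.0%), and 0 were constitutive. This share chose the window and is a description. The gained sites were at −41.3 and −16.0 kb upstream and at +39.7, +41.2, +49.3, +59.9 and +83.8 kb in the gene body, where 5 of 6 sites were gained. The remaining 2 sites, at +84.4 and +188.9 kb, had a peak of only some Empty libraries and are called mixed. Intervals here cover counting error only.

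The pair of gained sites at +39.7 and +41.2 kb included the highest WT ranks of both BAF subunits in the window. At +41.2 kb (hg19 chr15:67399331-67399449) SMARCA4 had 19 fragments at the summit in WT, a fold enrichment of 9.29 and rank 1894 of 12949 peaks, and no SMARCA4 peak in any other library. SMARCC1 had 34 fragments there in WT and 14 in DBDmut, and no peak in delIDR1, CBR, DDX4 or either Empty replicate. These counts put the site at rank 445 of the 4383 gained sites by summed WT rank. At +39.7 kb (chr15:67397808-67397928) SMARCA4 had 16 fragments in WT and 11 in DBDmut, and SMARCC1 had 26 in WT, with no other SMARCA4 or SMARCC1 peak. In DBDmut each site of the pair thus carried a peak of a different single subunit.

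Summit fragments of H3K27ac at this pair, not scaled to depth, fell from WT through DBDmut and delIDR1 to DDX4. At +39.7 kb H3K27ac had 94 fragments at the summit in WT, 69 in DBDmut, 45 in delIDR1 and 26 in DDX4, with no peak in CBR or either Empty replicate. At +41.2 kb the numbers were 101 in WT, 52 in DBDmut, 43 in delIDR1 and 17 in DDX4, again with no peak in CBR or Empty. As multiples of the lowest background of each library, delIDR1 (66.3) was not below DBDmut (63.8) at +41.2 kb. At +39.7 kb delIDR1 had 69.3 and DBDmut 84.7. delIDR1 and DDX4 thus had acetylation peaks at both sites without a peak of either subunit. WT fragments were scaled to another library by the ratio of lowest backgrounds or of fragments per kb, whichever was smaller. At +41.2 kb this gave 106 H3K27ac fragments in CBR, 67.5 in Empty replicate 1 and 316 in Empty replicate 2. A call at the WT local background, scaled by the ratio of lowest backgrounds, needed 33, 24 and 71 fragments in those libraries.

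The sites at +49.3 and +59.9 kb were weaker. At +49.3 kb (chr15:67407457-67407556) SMARCA4 had 9 fragments and SMARCC1 17 in WT, and no other library had a peak of either. H3K27ac had 43 fragments there in WT and 28 in DBDmut, and no peak elsewhere, so acetylation in DBDmut was called without BAF. At +59.9 kb (chr15:67418020-67418159) SMARCA4 had 8 fragments in WT and 5 in DBDmut, and SMARCC1 had 15 in WT and 6 in DBDmut. H3K27ac had 65 fragments in WT, 46 in DBDmut, 23 in delIDR1 and 16 in CBR, against no peak in either Empty replicate. This was 1 of 2 gained sites with both subunits in DBDmut.

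Upstream of the gene the BAF peaks rested on few fragments. At −41.3 kb (chr15:67316843-67316935) SMARCA4 had 6 fragments and SMARCC1 13 in WT, and at −16.0 kb (chr15:67341984-67342233) they had 9 and 12, with no SMARCA4 or SMARCC1 peak in any other library. H3K27ac at −41.3 kb had 28 fragments in WT, 35 in DBDmut and 17 in delIDR1. At −16.0 kb it had 56 in WT and 16 in DBDmut. CBR, DDX4 and both Empty replicates had no H3K27ac peak on either site, but beside the −41.3 kb site DDX4 and Empty replicate 2 had peaks of 15 fragments each that overlapped the WT H3K27ac peak. These upstream sites ranked 3700 and 4065 of the 4383 gained sites.

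**Figure D2:**
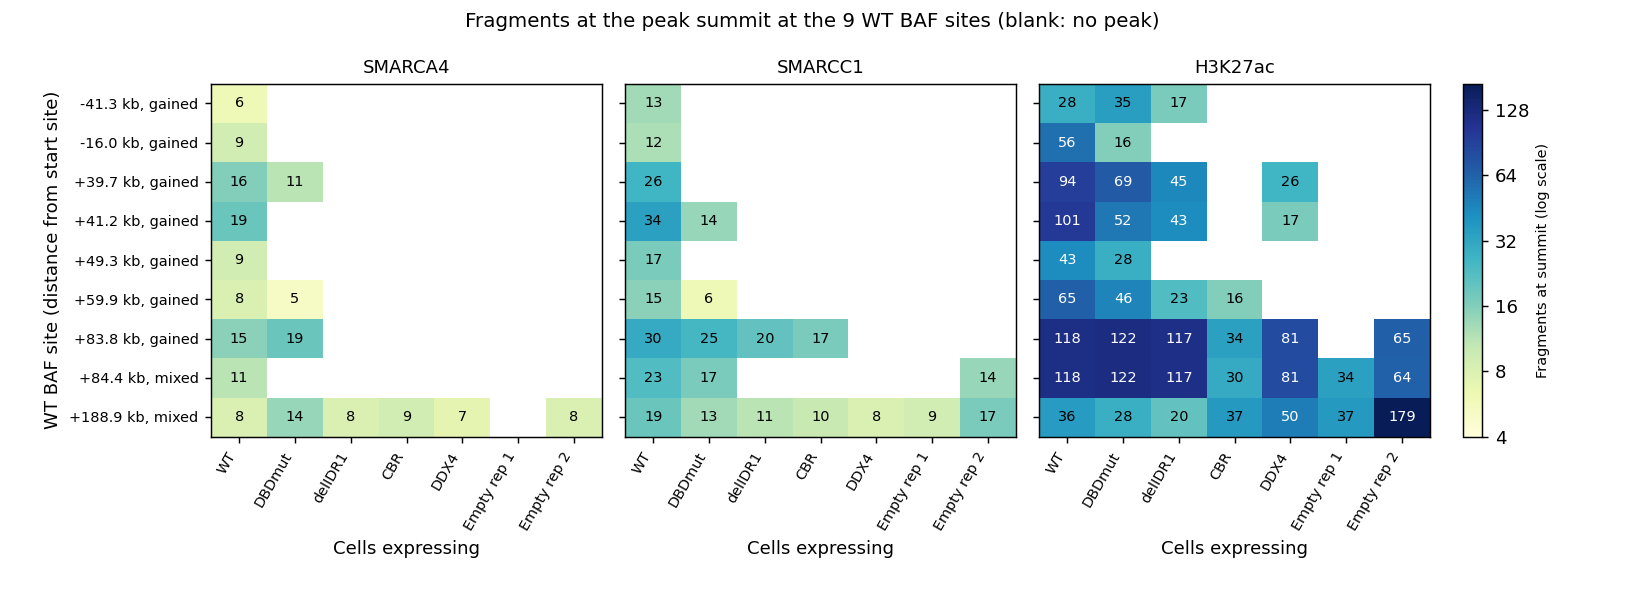
Fragments at the peak summit, recovered from the deposited fold and p-value, at the 9 WT BAF sites (rows, by distance from the start site) in each library (columns) for SMARCA4, SMARCC1 and H3K27ac; colour is on a log scale and blank cells had no peak. At +39.7 and +41.2 kb the H3K27ac numbers are 94 and 101 in WT and blank in CBR and both Empty replicates, whereas at +188.9 kb every H3K27ac library has a number, 20 to 50 in the forms of ARID1A, 37 in Empty replicate 1 and 179 in Empty replicate 2.

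DBDmut kept more of the 7 gained sites than the other forms. Both subunits had peaks at 2 of 7 sites in DBDmut (28.6%, interval 8.22 to 64.1), namely +59.9 and +83.8 kb, against 35.5% of all gained sites. With summits within 250 bp instead of any overlap, the gained sites lost −16.0 kb and took in +84.4 kb. Of those 7 sites DBDmut kept 1 (14.3%), because its SMARCC1 summit at +59.9 kb lay beyond that distance. The other forms kept 0 of 7, which allows a share of up to 35.4% by the Wilson interval, where delIDR1 kept 14.0%, CBR 5.50% and DDX4 0.479% of all gained sites. At 7 sites none of these shares in the window can be set apart from the share over all gained sites, and the interval of DBDmut overlapped those of the other forms. Counting a peak of either subunit, DBDmut had 4 sites, delIDR1 1, CBR 1 and DDX4 0, where the shares over all gained sites were 60.6%, 32.8%, 16.0% and 6.11% and lay within the intervals of the window, and the single site of delIDR1 and of CBR was the same, at +83.8 kb.

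In the forms other than WT, acetylation was called at more of the gained sites than BAF was, from longer lists of wider peaks. What that difference between the lists contributed was not tested. H3K27ac was not used to define the gained sites, and its peaks covered 7 of 7 sites in WT and 7 of 7 in DBDmut (100%, interval 64.6 to 100 for each), against 89.3% and 72.4% of all gained sites in those libraries. It covered 5 of 7 in delIDR1 (71.4%, against 65.5% of all gained sites), 2 of 7 in CBR (28.6%, against 26.6%) and 3 of 7 in DDX4 (42.9%, against 26.9%). In Empty it covered 0 of 7 in replicate 1 (0%, against 12.9%) and 1 of 7 in replicate 2 (14.3%, against 21.9%). Each interval included the value for all gained sites, so with 7 sites none of these shares stood apart from it. The sites acetylated in CBR were +59.9 and +83.8 kb, and those acetylated in DDX4 were +39.7, +41.2 and +83.8 kb, so the site at +83.8 kb was acetylated with all 5 forms.

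**Figure D3:**
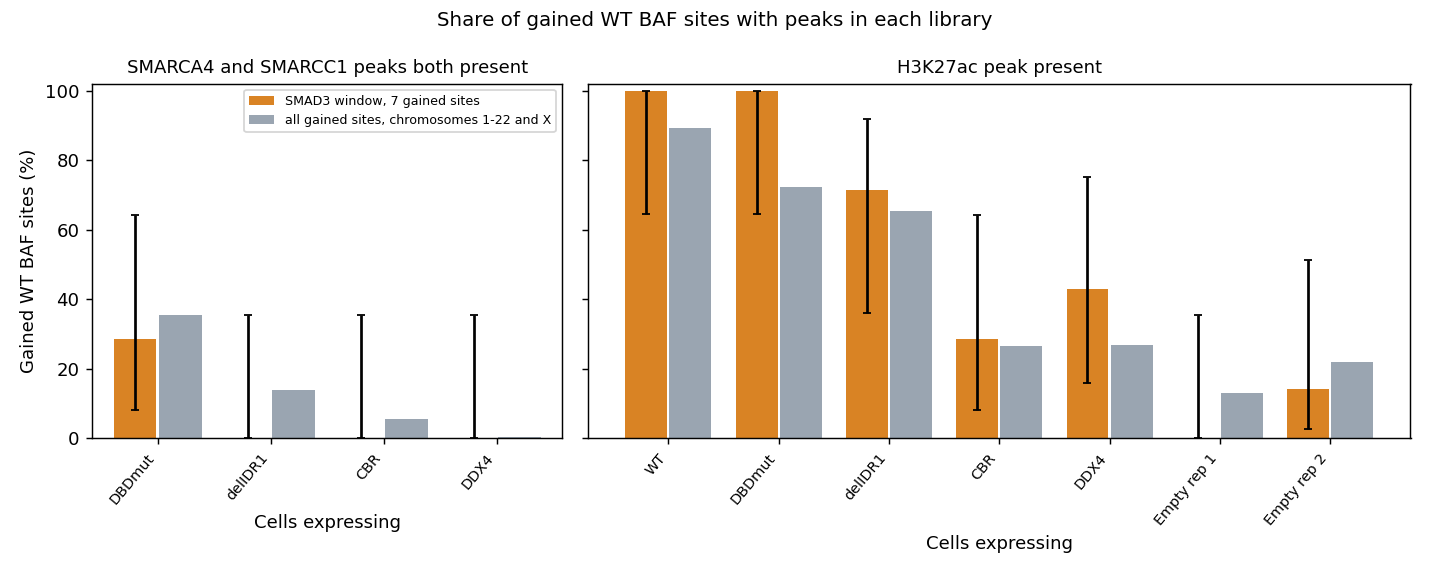
Percent of gained WT BAF sites with both subunits in each mutant (left) and with an H3K27ac peak in each library (right), for the 7 sites of the SMAD3 window (orange, with Wilson 95% intervals) and all 4383 gained sites (grey). In the right panel the orange bars are 100% in WT and DBDmut, 71.4% in delIDR1, 42.9% in DDX4 and 28.6% in CBR, against 0% and 14.3% in the Empty replicates.

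Scaled to the depth of the other libraries, WT fragments reached the number needed for calls of both subunits at most gene-body sites. In most libraries they did not for both at the upstream sites. WT fragments at a site were scaled to another library by the smaller ratio, and the WT background by the ratio of lowest backgrounds. The scaled fragments then reached the number needed for a call at +39.7, +41.2, +49.3 and +83.8 kb in every SMARCA4, SMARCC1 and H3K27ac library. Some margins were narrow: for SMARCC1 at +39.7 kb the scaled number was 8.64 in delIDR1 and 8.49 in DDX4, with 8 needed. Counting error can take such a number below the one needed, so a missing peak there does not show a difference from WT. Gained sites had to be called in WT and not in Empty, which favours high WT counts. Reaching the number therefore does not by itself show a difference at the other sites either. At −41.3 kb scaled SMARCA4 fragments stayed under that number in all 6 other libraries, for example 3.59 where 5 were needed in DBDmut and 4.82 where 6 were needed in Empty replicate 1. Scaled SMARCC1 fragments at that site reached it in DBDmut, CBR and both Empty replicates, and not in delIDR1 or DDX4. At −16.0 kb scaled SMARCC1 fragments stayed under it in all other libraries except Empty replicate 2. Scaled SMARCA4 fragments reached it there in all 6, some narrowly (6.02 in delIDR1, with 6 needed, and 7.15 in DDX4, with 7 needed). At +59.9 kb scaled fragments were just under it for SMARCC1 in delIDR1 (4.99, with 5 needed) and DDX4 (4.90, with 5 needed). They were also just under it for SMARCA4 in DBDmut (4.79, with 5 needed), where the peak was called nevertheless. A difference from WT was therefore not detectable at this depth for SMARCA4 at −41.3 kb, nor for SMARCC1 at −16.0 kb outside Empty replicate 2. The same held for SMARCC1 at −41.3 and +59.9 kb in delIDR1 and DDX4. For H3K27ac the scaled number was sufficient at 7 of 7 sites in every library.

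The element around +84 kb was the strongest acetylated region of the gene in WT, and its BAF peaks were the most widely shared of the gained sites. Here SMARCA4, SMARCC1 and HA peaks of 9 libraries joined into one stretch at chr15:67441871-67443246. At the gained site (+83.8 kb, chr15:67441939-67442137) SMARCA4 had 15 fragments in WT and 19 in DBDmut. SMARCC1 had 30 fragments in WT, 25 in DBDmut, 20 in delIDR1 and 17 in CBR. The delIDR1 peak ranked 1479 of 10477 in its own list. DDX4 and both Empty replicates had no SMARCC1 peak on this site.

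Toward its other edge the element carried SMARCC1 peaks also in libraries that had none on the gained site. The mixed site at +84.4 kb (chr15:67442432-67442616) had 11 SMARCA4 and 23 SMARCC1 fragments in WT and 17 SMARCC1 fragments in DBDmut. It was mixed because the edge of a SMARCC1 peak of Empty replicate 2 overlapped it. That peak had 14 fragments at its summit, which lay at +84.9 kb. Further SMARCC1 peaks with summits at +84.8 to +84.9 kb had 19 fragments in WT, 10 in DDX4 and 11 in CBR. SMARCC1 was thus called somewhere in the element in every library except Empty replicate 1, whereas SMARCA4 was called in WT and DBDmut and in no other library. The only HA peak of the window, from DDX4 cells, lay here at chr15:67442069-67442551 with 8 fragments, a fold enrichment of 5.88 and a −log10 q of 4.45. It touched 1 of 7 gained sites (14.3%, interval 2.57 to 51.3), against 3.24% of all gained sites, and 2 of 8 (25%) when Empty replicate 2 was left out.

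Acetylation covered this element in all 7 H3K27ac libraries. The highest summit lay at +83.8 or +83.9 kb in the forms of ARID1A, at +84.3 kb in Empty replicate 1 and at +83.3 kb in Empty replicate 2. It had 118 fragments in WT, 122 in DBDmut, 117 in delIDR1, 81 in DDX4 and 34 in CBR, against 34 and 65 in Empty replicates 1 and 2. As multiples of the lowest background of each library these were 183 in WT, 150 in DBDmut and 180 in delIDR1. DDX4 had 76.9 and CBR 49.6, against 78.8 and 32.2 in Empty replicates 1 and 2. The lowest background was 0.431 in Empty replicate 1 and 0.646 in WT, while fragments per kb were 4.4 and 4.48. Multiples of the lowest background therefore place Empty replicate 1 higher, relative to WT, than fragments per kb would. The delIDR1 peak ranked 760 of 31745 in its own list and was 1874 bp wide. The widths of the peaks on the gained site were 1219 bp in WT, 1747 bp in DBDmut, 1548 bp in DDX4 and 760 bp in CBR, against 773 bp in Empty replicate 2, while Empty replicate 1 had 1 peak on the mixed site (316 bp) and 1 beyond it (146 bp), and none on the gained site. The element was therefore acetylated in Empty cells too, and it differed between libraries in height and width.

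The site at +188.9 kb (chr15:67546947-67547154), downstream of the gene, was called in nearly every library. SMARCA4 had 8 fragments there in WT, 14 in DBDmut, 8 in delIDR1, 7 in DDX4 and 9 in CBR, against no peak in Empty replicate 1 and 8 in Empty replicate 2. SMARCC1 had 19 fragments in WT, 13 in DBDmut, 11 in delIDR1, 8 in DDX4 and 10 in CBR, against 9 and 17 in the Empty replicates. It was the only place in the window where delIDR1, CBR, DDX4 and Empty replicate 2 had both subunits. In RefSeq the genes that follow SMAD3 are the antisense RNA SMAD3-AS1, AAGAB and, past a pseudogene, IQCH, and the site was not assigned to any of them.

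H3K27ac at +188.9 kb had 36 fragments in WT, 28 in DBDmut, 20 in delIDR1, 50 in DDX4 and 37 in CBR, against 37 in Empty replicate 1 and 179 in Empty replicate 2. Since nearly every library had peaks there, it served as a divisor within each library, so that depth enters both counts. This ratio was chosen after the values had been seen, and the divisor varied too: it was 55.8 times the lowest background of its library in WT, 34.4 in DBDmut, 30.8 in delIDR1, 47.5 in DDX4 and 54 in CBR, against 85.8 and 88.7 in Empty replicates 1 and 2. By fragments per kb, Empty replicate 1 (4.4) and WT (4.48) were close in depth, and their counts of 37 and 36 were alike. H3K27ac fragments at the summit of the +84 kb element were 3.28 times those of the downstream site in WT (exact 95% interval 2.24 to 4.90), 4.36 times in DBDmut (2.87 to 6.83), 5.85 times in delIDR1 (3.62 to 9.93), 1.62 times in DDX4 (1.12 to 2.35) and 0.919 times in CBR (0.56 to 1.5). The ratios in Empty were 0.919 (0.56 to 1.5) in replicate 1 and 0.363 (0.269 to 0.485) in replicate 2.

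WT, DBDmut and delIDR1 lay above both Empty replicates with intervals that did not overlap theirs, and delIDR1 lay above WT through its lower count downstream (20 fragments, against 36 in WT), since the counts at +84 kb were 117 and 118. CBR had the same 34 and 37 fragments as Empty replicate 1, and the interval of DDX4 overlapped that of Empty replicate 1. The ratio took the highest summit wherever it lay in the element. In CBR that summit was at +83.8 kb, on the gained site, and in Empty replicate 1 at +84.3 kb, on the mixed site. The Empty replicates themselves differed by more than counting error, so the counting interval understates the spread between libraries, and intervals that do not overlap show no difference between forms with 1 library each. For SMARCC1 the same ratio was 1.58 in WT, 1.92 in DBDmut, 1.82 in delIDR1, 1.25 in DDX4 and 1.7 in CBR, against 0.824 in Empty replicate 2, with intervals that all overlapped (that of WT ran from 0.86 to 2.97 and that of Empty replicate 2 from 0.376 to 1.78).

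**Figure D4:**
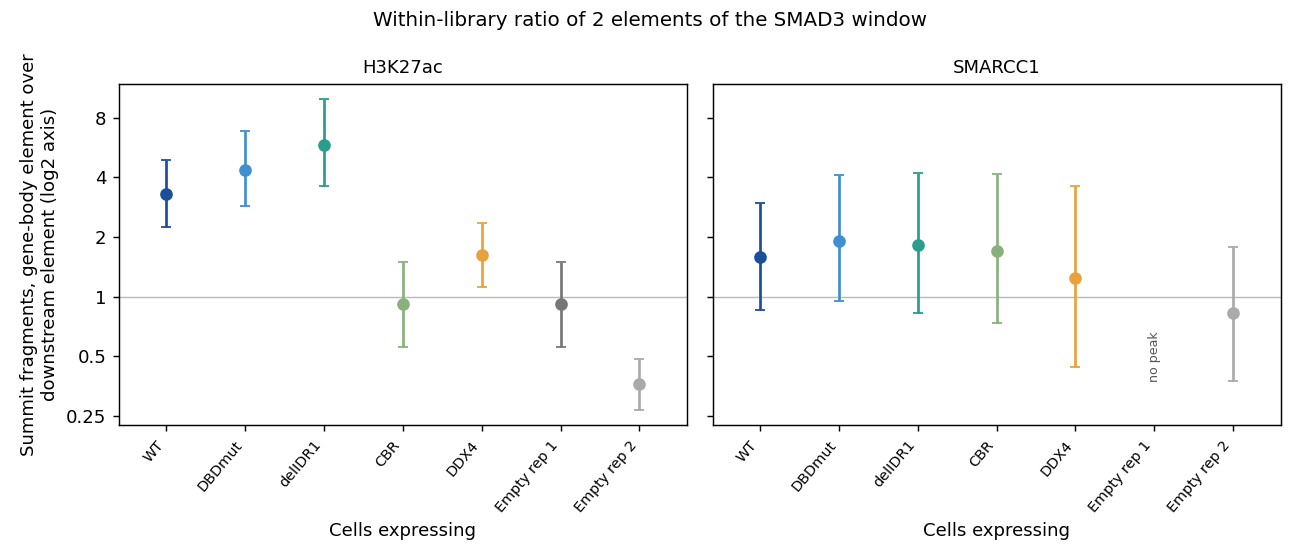
Fragments at the highest summit of the +84 kb gene-body element divided by those of the +188.9 kb downstream element in the same library, for H3K27ac (left) and SMARCC1 (right), on a log2 axis with exact 95% intervals for a ratio of 2 counts. H3K27ac ratios were 3.28, 4.36 and 5.85 in WT, DBDmut and delIDR1, 1.62 in DDX4 and 0.919 in CBR, against 0.919 and 0.363 in the Empty replicates.

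BAF was not called at the SMAD3 start in WT. No SMARCA4, SMARCC1 or H3K27ac peak of WT came within 2500 bp of it. SMARCA4 had a peak across the start in DBDmut (10 fragments, fold enrichment 7.76, −log10 q 8.20) and one ending 40 bp before it in CBR (11 fragments, fold 7.67, −log10 q 7.96), with summits at the same base, 67358151, and no SMARCC1 peak beside either. H3K27ac had peaks near the start in Empty replicate 2 alone, 1 before and 2 after it, with 41, 40 and 30 fragments and local backgrounds of 9.75 to 9.84 fragments. None of the forms of ARID1A and not Empty replicate 1 had an H3K27ac peak there. Near this start site the deposited lists thus gave SMARCA4 and H3K27ac peaks in different libraries.

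Joined over all libraries, H3K27ac peaks formed 55 acetylated regions, 12 upstream, 33 in the gene body and 10 downstream. WT had a peak in 20 of them, and 13 of these 20 had none in either Empty replicate, 9 of them in the gene body. Counted by WT peak, 13 of 21 had no Empty peak (61.9%, interval 40.9 to 79.2), against 40.0% of all WT H3K27ac peaks. Of those 13, DBDmut had a peak on 9 (69.2%, interval 42.4 to 87.3, against 41.2% over all such WT peaks) and delIDR1 on 5 (38.5%, interval 17.7 to 64.5, against 33.1%). DDX4 had a peak on 4 (30.8%, interval 12.7 to 57.6, against 7.50%) and CBR on 1 (7.69%, interval 1.37 to 33.3, against 7.70%). The window was chosen on these libraries and neighbouring peaks are not independent, so the shares of DBDmut and DDX4 above those of all such peaks are a description. A further 23 regions had a peak in Empty replicate 2 alone, and 2 regions, the +84 kb element and the downstream site, had one in all 7 libraries. The 3 regions found in WT alone were all in the gene body, at +15.1, +43.7 and +112.8 kb, with 27, 52 and 16 fragments.

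Bases covered by called peaks, which vary with the length and depth of a list, were compared with those of WT. The same shares over all chromosomes are not given here, so the values describe this gene only. H3K27ac peaks covered 7377 bp of the gene body in WT, 5217 bp in DBDmut, 3721 bp in delIDR1, 4333 bp in DDX4 and 2632 bp in CBR, against 618 bp in Empty replicate 1 and 6895 bp in Empty replicate 2. Of the bases covered in WT, 56.4% were covered in DBDmut, 43.7% in delIDR1, 37.9% in DDX4 and 22.5% in CBR, against 6.26% and 15.5% in the Empty replicates. Empty replicate 2 therefore had nearly as many acetylated bases in the gene as WT, mostly at other positions. Its library was also the deepest, with 14.5 fragments per kb, against 4.48 in WT, and what that contributed was not tested.

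Some acetylated regions had no BAF site. The strongest of them upstream, at −21.3 kb, had 61 fragments at its summit in WT, 29 in DBDmut, 33 in delIDR1, 9 in DDX4 and 10 in CBR, against no peak in Empty replicate 1 and 17 in Empty replicate 2, and no SMARCA4 or SMARCC1 peak in any library. The region at +68.7 kb had 57 H3K27ac fragments in WT, 46 in DBDmut, 26 in delIDR1, 35 in DDX4 and 26 in CBR, against no peak in Empty replicate 1 and 51 in Empty replicate 2. There SMARCC1 had a peak in WT (12 fragments) without SMARCA4. The region at +72.4 kb had no peak in WT, with 38 fragments in DBDmut and 26 in DDX4, against 58 in Empty replicate 2. Acetylation in the gene was therefore not limited to the BAF sites or to cells with WT ARID1A.

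Outside the elements that held the 9 sites there were 7 peaks of a single subunit. SMARCC1 of WT had 9 fragments at −24.0 kb, 12 at +68.7 kb and 8 at +167.2 kb. SMARCA4 of Empty replicate 2 had 6 fragments at +37.7 kb, where that library also had an H3K27ac peak of 33 fragments, and SMARCA4 of CBR had 3 at +215.9 kb. The other two were the SMARCA4 peaks at the start site. The SMARCA4, SMARCC1 and HA peaks of all libraries formed 14 elements, 3 upstream, 8 in the gene body and 3 downstream, and 5 of the 14 rested on 1 library. No BAF site was found in a mutant alone: the 3 sites of DBDmut and the 1 site each of delIDR1, CBR and DDX4 were also sites in WT.

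The gained sites of the SMAD3 window had WT BAF ranks spread around the median of all gained sites. Their WT SMARCA4 ranks were 1894 to 12250, with a median of 5205, against a median of 6203 over all gained sites, and their median SMARCA4 fragments were 9, against 9 over all. WT H3K27ac at them had a median of 65 fragments, against 35 over all acetylated gained sites, while their median H3K27ac fold enrichment over the local background was 6.91, against 8.72. SMARCC1 summits lay a median of 44 bp from SMARCA4 summits, against 40 bp, and H3K27ac summits a median of 48 bp, against 46 bp. Of 8680 consecutive stretches of 350 kb along the chromosomes, 10 (0.115%) held at least 7 gained sites and the highest held 9, while 6150 held none. The window was chosen for its number of sites, so that share is a description.

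The nearest gained sites outside the window were far off. Before it, the nearest was at chr15:67175959-67176206, 74.0 kb ahead of the window, with a WT SMARCA4 fold of 10.4, and after it at chr15:68218946-68219202, 619.2 kb past its end, with a fold of 13. The outermost SMARCA4 peaks inside the window were the gained site at −41.3 kb (fold 4.81) and the CBR peak at +215.9 kb (fold 3.61), and the next outside were a DBDmut peak 11 kb before it (fold 3.66) and a DDX4 peak 213.9 kb after it (fold 5.29). For H3K27ac, the first peak inside was in CBR (fold 3.83) and the last in Empty replicate 2 (fold 3.65), with neighbours outside 3.7 kb before (Empty replicate 2, fold 4.31) and 106.6 kb after (WT, fold 6.08).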

How the data were processed

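SMARCA4, SMARCC1, H3K27ac and HA were profiled by CUT&Tag with a commercial protocol, per the labels' protocols. The submitters' processing notes name hg19 and bcl2fastq (no version); aligner, peak caller, duplicate handling and control were each not given in the sources used here. The authors deposited 1 narrowPeak list per library, so peaks were called per library. In the deposited lists each peak has a score, a fold enrichment (a ratio, whose values match summit pileup plus 1 over local background plus 1), and both p and q as −log10 p-value and −log10 q-value; the lowest −log10 q was 2.00 to 2.03. These are the authors' values and were used only within a list.

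Fragments at a summit were recovered from fold and p-value, taken as a Poisson tail, to within 0.001 in −log10 p, for 99.68% to 99.97% of peaks. This was tested on simulated data first. The lowest background of a library divided by its shortest peak gave fragments per kb, an estimate of depth. WT fragments were scaled to another library by the ratio of lowest backgrounds or of fragments per kb, whichever was smaller. The WT background was scaled by the ratio of lowest backgrounds. The fragments needed for a call were those whose p reached the lowest in the list at the scaled WT background. Total fragment numbers are not in the lists. Peaks overlapped when they shared 1 bp. Shares have Wilson intervals, and ratios of counts have exact ones; PCR copies make both too narrow. No p-values were computed, since every form had 1 library per antibody. Samples were grouped by title. The window, sites and motifs were chosen with earlier results of these data known. Named were all gained and constitutive sites, mutant-only sites and the peaks of highest rank in their own lists; other peaks were chosen after their values were seen. Alternatives were a −log10 q of 5, lists of equal length, an overlap of 50%, summits within 250 bp, each Empty replicate left out, either subunit alone, and the gene body alone. Promoters came from RefSeq (GRCh38.p14). No hg19 genome or annotation was used here, so exons, introns and peak sequences are not given. Python 3.11.15, numpy 2.4.6, scipy 1.17.1, pandas 2.3.3 and matplotlib 3.10.9 were used.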

Additional observations from a re-analysis of the deposited data

How the results depend on the processing

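With all lists of an antibody limited to an equal number of peaks, 4 gained sites were left in the window, and they made up 100% of its BAF sites there; the shorter WT lists (4 SMARCA4 and 6 SMARCC1 peaks in the window) are how that alternative is built. With a −log10 q of at least 5, HA had peaks at 0% of the gained sites, since the 1 HA peak is below that value. The other alternatives kept the results within their counting intervals or within 1.5 times the count, 112 in all, with the 3 above as the exceptions. With 7 sites these intervals are wide, so this says little about how stable the shares are. The share kept in DBDmut, for example, counted as within its interval at 14.3% as at 28.6%, although the 7 sites were then not all the same. Leaving out Empty replicate 1 gave 7 gained sites and leaving out Empty replicate 2 gave 8, the added one being the site at +84.4 kb. Requiring an overlap of 50% of the shorter peak also gave 8. Subtracting the local background, chosen after seeing the data, gave H3K27ac ratios of 3.10 in WT, 4.04 in DBDmut, 5.64 in delIDR1, 1.45 in DDX4 and 0.811 in CBR, against 0.837 and 0.281 in the Empty replicates. Under a −log10 q of 5 or equal lists, 29 peak counts of a library stayed within 1.5 times and 13 did not; H3K27ac of Empty replicate 2 had 21 and 9 peaks. No paired analysis was possible because every form of ARID1A had 1 library per antibody and only Empty had 2 replicates. Depth limits SMARCA4 at −41.3 kb and SMARCC1 at −16.0 kb most, and 1 library per form limits every comparison.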
